A study of Bos taurus with 16 samples.

Results

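The genes examined here are 10 components of the basement membrane, taken by gene symbol from the deposited expression tables: the nidogens NID1 and NID2, the laminin chains LAMA1, LAMA5, LAMB1 and LAMC1, the type IV collagen chains COL4A1 and COL4A2, the heparan sulfate proteoglycan perlecan (HSPG2) and the collagen-binding glycoprotein SPARC. All 10 were found in each table, among 38959 and 37429 genes in the blastocyst tables and 28303 in the table of bovine embryonic stem cells (bESCs). The basement membrane is a thin sheet of extracellular matrix beneath epithelia. A laminin trimer of 1 alpha, 1 beta and 1 gamma chain polymerizes on the cell surface, type IV collagen forms a network of its own, and nidogen and perlecan bind both networks. In the blastocyst, laminin and type IV collagen are laid down between trophectoderm, hypoblast and epiblast, and the hypoblast (primitive endoderm) is known as a major source of them.

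The libraries came from 12 single blastocysts, 1 embryo each, and from 4 bESC samples, all labelled WT and batch 1. The first blastocyst table holds 3 embryos given the DMSO vehicle (DMSO) and 3 given 10 μM LY2955303, an inhibitor of retinoic acid receptor gamma (RARγ), from the 2-cell stage (LY10). The second holds 2 embryos each of LY from the 2-cell stage (cell2_LY), LY from the 16-cell stage (cell16_LY) and vehicle (LY_DMSO, taken as the control of both); the labels give no dose for these. The bESCs were derived from blastocyst inner cell mass and grown on mouse embryonic fibroblast feeders in TiFX medium without (bESC_tifx) or with LY (bESC_LY), with 2 libraries each. The embryos came from in vitro fertilization of slaughterhouse oocytes, and the culture medium of every embryo group also held LIF, FGF2 and IGF1. Nothing in the labels says whether the bESC libraries are separate cultures, so their p-values measure the spread between these libraries, which may be technical.

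Reads on genes were between 7905768 and 15137567 per library in the first blastocyst table, 11336091 and 17343140 in the second, and 29055323 and 31230432 in the bESC table. Levels below are FPKM, reads scaled to gene length and library size. Changes are log2 fold changes of normalized counts, the reads divided by the authors' library size and scaled to a common size within a table. The tables were normalized separately, so levels from different tables are set side by side without a test. Trophectoderm marker transcripts summed to between 2573 and 9548 FPKM in the blastocysts, and POU5F1, the pluripotency factor, was between 164 and 611 FPKM. In the bESCs POU5F1 was between 967 and 1117 FPKM, while the hypoblast factor GATA6 was between 0 and 0.299 FPKM. SOX17, another hypoblast factor, was at or below 0.303 FPKM in every blastocyst, where GATA6 was between 38.2 and 107 FPKM.

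In the RefSeq-based blastocyst tables NID1 (Gene ID 534319) lies on chromosome 28 at 8687270 to 8784202 and NID2 (521854) on chromosome 10 at 44846567 to 44939145. LAMA1 (506387) lies on chromosome 24 at 39951574 to 40077260, LAMA5 (506751) on chromosome 13 at 54887604 to 54939286, LAMB1 (520030) on chromosome 4 at 48985684 to 49062382 and LAMC1 (532572) on chromosome 16 at 64062643 to 64183739. COL4A1 (282191) and COL4A2 (508632) are neighbours on chromosome 12 that point away from each other, COL4A1 at 84863917 to 84995777 on the minus strand and COL4A2 at 84996172 to 85157766 on the plus strand, with 394 bases between their starts. HSPG2 (444872) lies on chromosome 2 at 130867527 to 130977472 and SPARC (282077) on chromosome 7 at 62874459 to 62897234. These are the tables' own positions, and for 9 of the 10, all but NID2, RefSeq gives the same ones on ARS-UCD2.0. Other annotated genes overlap NID2, LAMA1, LAMB1, LAMC1 and HSPG2, each with at most 90 reads in any blastocyst.

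The members covered a wide range of levels within the same embryos. SPARC was highest in the blastocysts, with a mean of 124 FPKM over the first table and 122 FPKM over the second, followed by LAMB1 at 30.4 and 27.4 FPKM and NID2 at 21.1 and 22.2 FPKM. LAMC1, COL4A1 and NID1 came next at means between 4.61 and 12.1 FPKM, and the ranges of these 3 overlapped in both tables. LAMA1, LAMA5 and COL4A2 were at means between 0.417 and 1.53 FPKM. Perlecan was lowest, at means of 0.0516 and 0.137 FPKM, with 6 to 9 reads per library in the first table and 13 to 54 in the second. In the first table the ranges of neighbours in this order overlapped throughout, as those of SPARC (50.2 to 267 FPKM) and LAMB1 (14.5 to 62.6 FPKM) did. In the second table SPARC (77.1 to 215 FPKM) lay wholly above LAMB1 (22.0 to 37.1 FPKM), COL4A1 above LAMA1 and COL4A2 above HSPG2, while the other neighbours overlapped.

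**Figure D1:**
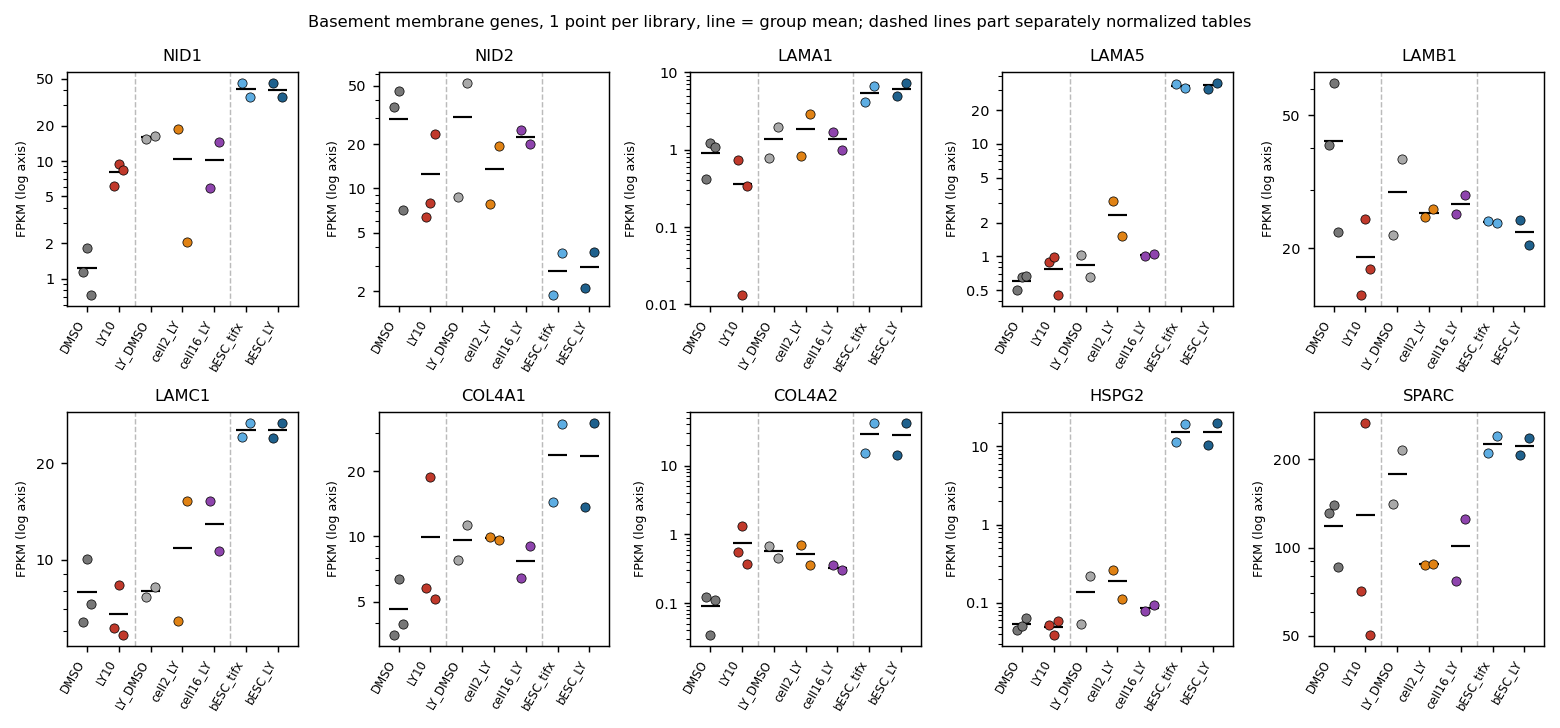
FPKM of each basement membrane gene in every library, on a log axis that differs between panels, with 1 point per library and a line at the group mean; dashed lines part the 3 separately normalized tables. NID1 was at or below 1.82 FPKM in the DMSO embryos and at or above 6.19 FPKM in the LY10 embryos, and NID2 was the 1 member lower in all 4 bESC libraries than in all 12 blastocysts.

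The bESCs, which were derived from inner cell mass, had another order. SPARC was again highest at a mean of 224 FPKM, but NID1 was next at 40.6 FPKM, from 35.0 to 46.4 FPKM, followed by LAMA5 at 33.0 FPKM. COL4A2 (28.5 FPKM), LAMC1 (25.4 FPKM), COL4A1 (23.6 FPKM) and LAMB1 (23.2 FPKM) were close to each other. NID2 was lowest at 2.85 FPKM. NID1 and NID2, which link the same networks, thus stood in opposite order: NID2 was above NID1 in 9 of the 12 blastocysts and NID1 above NID2 in all 4 bESC libraries. Perlecan was between 10.3 and 20.1 FPKM in the bESCs and at or below 0.265 FPKM in every blastocyst. The bESC table uses Ensembl gene models, and fibroblast marker transcripts summed to between 70.8 and 72.6 FPKM there, against 6.10 to 91.1 FPKM in the blastocysts. These sums differ in make-up. COL1A1 was between 45.8 and 54.7 FPKM in the bESCs and at or below 1.76 FPKM in every blastocyst. COL1A2 was between 3.03 and 3.79 FPKM in the bESCs and up to 12.9 FPKM in the DMSO embryos. The part of feeder cells in the bESC levels was not tested. Blastocyst RNA was amplified from single embryos with a SMART-Seq kit, while bESC RNA was column-purified. Cell type and RNA preparation therefore cannot be told apart in these levels.

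The partner chains of type IV collagen were far from equal in the blastocysts. Type IV collagen molecules usually hold COL4A1 and COL4A2 chains together, and per length COL4A1 was between 10.7 and 187 times COL4A2 in the 12 embryos. In the 4 bESC libraries this ratio was between 0.774 and 0.967. The gene models differ: COL4A2 is 8212 bases long in the blastocyst tables and 5478 bases in the bESC table, where it begins at 85040120. COL4A2 rested on 3 to 172 reads per library in the first blastocyst table and 32 to 93 in the second, so its ratios carry a large counting error. LAMB1 and LAMC1, the shared beta and gamma chains of the main embryonic laminins, stood at a ratio of 1.67 to 6.36 in the blastocysts and 0.762 to 1.01 in the bESCs. Cell type, gene models and RNA preparation cannot be told apart in either ratio.

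**Figure D2:**
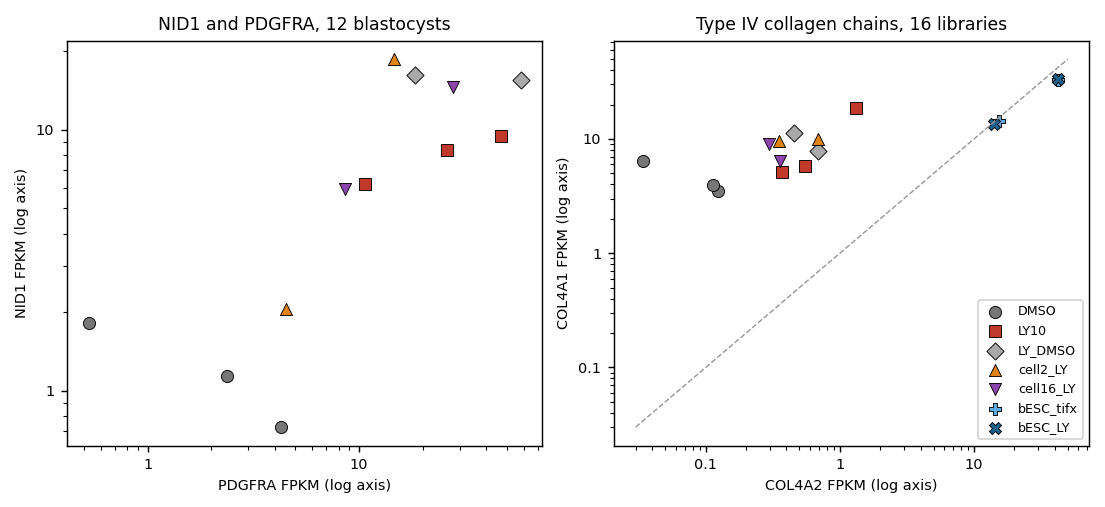
Left, NID1 against PDGFRA in the 12 blastocysts; right, COL4A1 against COL4A2 in all 16 libraries; both axes are FPKM on a log scale, 1 point per library, and the dashed line marks equal FPKM. The 3 DMSO embryos lie at the lowest PDGFRA and NID1 levels, at or below 4.26 and 1.82 FPKM, and every blastocyst lies above the line of equal collagen levels. PDGFRA is 1 of 6 tested hypoblast markers, of which 3 were above 0 and 3 below in LY10 against DMSO. The blastocyst tables were normalized separately.

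To ask what RARγ inhibition from the 2-cell stage did to these genes, LY10 was compared with DMSO. NID1 rose 6.78-fold and COL4A2 rose 7.17-fold, while the laminin chain LAMB1 fell, and the other laminin chains, NID2, COL4A1 and SPARC did not pass the threshold of an unadjusted p under 0.05 with a log2 fold change beyond 1. HSPG2 was below the filter of a mean normalized count of 10 and was not tested. COL4A2 met this filter only through the LY10 embryos, its mean in DMSO being below 10. Of all 14249 genes tested, 6.2% passed this threshold higher and 8.51% lower, so the 2 members higher and 1 lower of 9 are to be read against those shares. After Benjamini-Hochberg adjustment 0.014% of the genes were under 0.05 and no member was.

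NID1 was 1.14, 1.82 and 0.725 FPKM in the DMSO embryos and 6.19, 9.46 and 8.33 FPKM in the LY10 embryos. All LY10 embryos were above all DMSO embryos, and the log2 fold change was 2.76 ± 0.38 (SE, adjusted p = 0.0711, limma). It stayed between 2.44 and 3.09 when any 1 library was left out, and adjusted p ranged from 0.0117 to 0.184 over the alternatives tried. NID2, its paralog, was 35.7, 45.8 and 7.16 FPKM in DMSO and 6.39, 7.93 and 23.4 FPKM in LY10. These groups overlapped through DMSO replicate 3 and LY10 replicate 3, and the log2 fold change was -1.10 ± 0.72 (adjusted p = 0.382, limma). Without DMSO replicate 3 it was -1.93 (adjusted p = 0.0445, between 0.0445 and 0.727 over the alternatives). In that fit 1964 of 14298 genes were under 0.05 after adjustment, against 2 of 14249 with all libraries. With sample weights 1551 genes were. The lowest adjusted p-values of the members are to be read beside these counts.

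COL4A2 was 0.124, 0.0341 and 0.113 FPKM in DMSO and 0.546, 1.32 and 0.370 FPKM in LY10, from 14, 3 and 9 reads against 35, 172 and 25 reads. The groups did not overlap, and the log2 fold change was 2.84 ± 0.73 (adjusted p = 0.0889, between 0.0407 and 0.263 over the alternatives). COL4A1 was 3.51, 6.38 and 3.97 FPKM in DMSO and 5.81, 18.8 and 5.14 FPKM in LY10. Its log2 fold change of 0.88 ± 0.49 (adjusted p = 0.313) did not pass, and LY10 replicate 2 stood apart from the other embryos. The same embryo had the highest SPARC, at 267 FPKM against 71.2 and 50.2 FPKM in the other LY10 embryos and 131, 139 and 85.5 FPKM in DMSO. SPARC, which binds type IV collagen, had a log2 fold change of -0.24 ± 0.55 (adjusted p = 0.824), which became -0.96 when LY10 replicate 2 was left out and turned to 0.25 when LY10 replicate 3 was, neither being called.

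Among the laminin chains, LAMB1 was 40.8, 62.6 and 22.4 FPKM in DMSO and 14.5, 24.5 and 17.4 FPKM in LY10. DMSO replicate 3 was within the LY10 range, and the log2 fold change was -1.07 ± 0.38 (adjusted p = 0.149). LAMB1 was no longer called when DMSO replicate 1, DMSO replicate 2, LY10 replicate 1 or LY10 replicate 3 was left out (log2 fold changes of -1.03, -0.72, -0.90 and -1.03). LAMC1, its partner chain, was 6.41, 10.0 and 7.27 FPKM in DMSO and 6.13, 8.33 and 5.82 FPKM in LY10, with a log2 fold change of -0.22 ± 0.27 (adjusted p = 0.648). The LAMB1 to LAMC1 ratio was 6.36, 6.23 and 3.08 in DMSO and 2.36, 2.94 and 2.99 in LY10, so the groups did not overlap but DMSO replicate 3 was next to LY10.

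The alpha chains were much lower. LAMA1, the alpha chain of laminin-111, was 0.419, 1.22 and 1.10 FPKM in DMSO and 0.736, 0.0132 and 0.343 FPKM in LY10. LY10 replicate 2, the embryo with the highest COL4A1 and SPARC, had 2 LAMA1 reads, against 27 to 125 in the other 5 embryos, and the log2 fold change of -2.20 ± 1.16 (adjusted p = 0.289) was not called. LAMA1 did pass with voom weights (-3.16) and without LY10 replicate 1 (-3.23), while its log2 fold change was -0.70 without LY10 replicate 2 and -0.49 on log2(FPKM + 1). Over all alternatives between 2 and 4 members were called in LY10. LAMA5, the alpha chain of laminin-511, was 0.505, 0.655 and 0.667 FPKM in DMSO and 0.887, 0.992 and 0.453 FPKM in LY10, and its log2 fold change was 0.28 ± 0.41 (adjusted p = 0.706). Over the 9 tested members the median log2 fold change was -0.22, against -0.05 over all genes.

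Markers of cell types moved in the same comparison. Of 6 tested hypoblast markers 2 were higher in LY10, the receptor PDGFRA (log2 fold change 3.74) and the transcription factor HNF4A (3.31). Of the 6, 3 were above 0 and 3 below, GATA6 (-0.73), GATA4 (-1.03) and RSPO3 (-1.54), which were not called. PDGFRA was between 0.526 and 4.26 FPKM in DMSO and between 10.6 and 47.1 FPKM in LY10. The LY10 embryos stood in the same order as for NID1, and the DMSO embryos in the opposite one. The hypoblast list as a whole summed to 72.7 to 120 FPKM in DMSO and 72.0 to 108 FPKM in LY10, and within it GATA6 was 64.8 to 107 FPKM in DMSO and 46.2 to 57.3 FPKM in LY10. Of 7 tested epiblast markers POU5F1 (1.23) and DPPA4 (1.59) were higher. Fibroblast markers summed to 24.4 to 91.1 FPKM in DMSO and 6.10 to 11.7 FPKM in LY10, and 2 of 5 tested, COL1A2 (-1.22) and DCN (-2.76), were lower. The part of any of these cell types in the member values was not tested, and in whole embryos fewer cells of a type and less RNA per cell cannot be told apart.

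**Figure D3:**
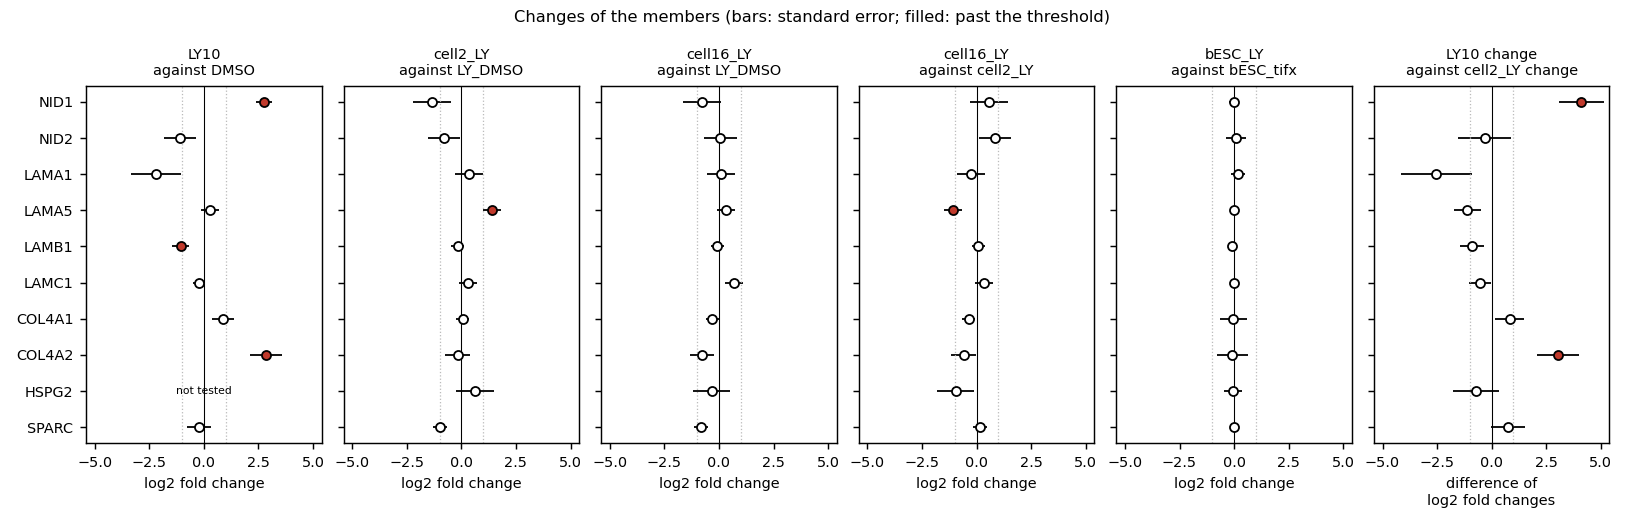
Log2 fold change with its standard error (bars) for each member in the 5 group comparisons, and on the right the difference between the LY10 and cell2_LY changes; filled points passed the threshold and dotted lines mark a log2 fold change of 1 in either direction. NID1 (2.76) and COL4A2 (2.84) stand to the right in LY10, LAMA5 (1.40) in cell2_LY, and no bESC value is beyond 0.18.

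The second 2-cell experiment was compared with its own vehicle. In cell2_LY 1 of 10 members, LAMA5, rose, by 2.64-fold, and no member fell; over all 14529 genes 8.71% passed the threshold higher and 8.34% lower. LAMA5 was 1.03 and 0.661 FPKM in LY_DMSO and 3.12 and 1.53 FPKM in cell2_LY. The groups did not overlap, and the log2 fold change was 1.40 ± 0.43 (adjusted p = 0.111, between 0.0523 and 0.379 over the alternatives). LAMA5 was not called without LY_DMSO replicate 2 (log2 fold change 1.08) or cell2_LY replicate 1 (0.89), nor on log2(FPKM + 1) (0.82).

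NID1 and COL4A2, the members that were higher in LY10, did not pass here. NID1 was 15.5 and 16.2 FPKM in LY_DMSO but 18.6 and 2.05 FPKM in cell2_LY, so the embryos of 1 group held both the highest and the lowest value of the table, and the log2 fold change was -1.36 ± 0.87 (adjusted p = 0.360). It was -2.95 without cell2_LY replicate 1 (passing the threshold) and 0.23 without cell2_LY replicate 2. PDGFRA, lower in cell2_LY (log2 fold change -2.01), was 58.2 and 18.3 FPKM in LY_DMSO and 14.6 and 4.51 FPKM in cell2_LY, with its lowest value in the embryo that was lowest in NID1. PDGFRA was the 1 of 6 tested hypoblast markers that was called; 3 were above 0 (GATA6 0.59, GATA4 0.84 and RSPO3 0.39) and 3 below, and the list summed to 89.3 to 131 FPKM in LY_DMSO and 109 to 119 FPKM in cell2_LY. Its part in the NID1 values was not tested. COL4A2 was 0.688 and 0.458 FPKM in LY_DMSO and 0.689 and 0.354 FPKM in cell2_LY (log2 fold change -0.18 ± 0.56, adjusted p = 0.869), and COL4A1 was between 7.83 and 11.3 FPKM in these 4 embryos.

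SPARC was 141 and 215 FPKM in LY_DMSO and 87.4 and 87.8 FPKM in cell2_LY. The groups did not overlap, and its log2 fold change of -0.99 ± 0.32 (adjusted p = 0.121, limma) was just inside the limit of 1. With 2 embryos per group such separation can readily arise by chance. The share of all genes whose groups did not overlap was not computed, here or in the other comparisons. NID2 was 8.74 and 52.4 FPKM in LY_DMSO and 7.84 and 19.4 FPKM in cell2_LY, so the vehicle embryos alone covered its whole range but for the lowest value. Without LY_DMSO replicate 1, NID2 (-2.08) and SPARC (-1.29) also passed the threshold. Perlecan, at 0.0542 and 0.220 FPKM in LY_DMSO and 0.265 and 0.111 FPKM in cell2_LY, and the chains LAMA1, LAMB1 and LAMC1 had log2 fold changes between -0.17 and 0.62, none of which passed. The member median was -0.05, against 0.00287 over all genes.

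When LY was begun at the 16-cell stage, no member passed the threshold against LY_DMSO by limma, 1 of 10 had an unadjusted p under 0.05 (SPARC), and none was called with voom weights. The share over all genes was 3.25% higher and 1.97% lower, and 0% were under 0.05 after adjustment, against 7.62% with an unadjusted p under 0.05. SPARC was 77.1 and 125 FPKM in cell16_LY, below both vehicle embryos, with a log2 fold change of -0.82 ± 0.32 (adjusted p = 0.620). It passed the threshold without LY_DMSO replicate 1 (-1.13) or cell16_LY replicate 2 (-1.17). LAMC1, at 15.2 and 10.6 FPKM, was above both vehicle embryos (7.68 and 8.25 FPKM), with a log2 fold change of 0.67 ± 0.41 (adjusted p = 0.745, limma). NID1, at 5.90 and 14.5 FPKM, and COL4A2 were below both. Their log2 fold changes were -0.78 ± 0.87 and -0.77 ± 0.56 (adjusted p = 0.867 and 0.784, limma). The NID2 value turned with the vehicle embryo used: its log2 fold change was 0.06 ± 0.74 with both, -1.23 without LY_DMSO replicate 1 and 1.35 without LY_DMSO replicate 2, and each of the last values passed the threshold.

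Between the start stages, LAMA5 was lower in cell16_LY (1.01 and 1.05 FPKM) than in cell2_LY (3.12 and 1.53 FPKM), by 1.08 ± 0.43 on the log2 scale (adjusted p = 0.253), 1 of 10 members against 5.58% of all genes higher and 5.77% lower. It was not called without cell16_LY replicate 1 (-1.05), cell16_LY replicate 2 (-1.11) or cell2_LY replicate 1 (-0.57). This comparison and those with LY_DMSO share embryos. The other 9 members had log2 fold changes between -0.95 and 0.85.

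In the bESCs LY did not move any member past the threshold. The 10 log2 fold changes were between -0.11 and 0.18, with standard errors from 0.14 to 0.73, and every adjusted p was 1.00 (limma); 0 members had an unadjusted p under 0.05, and 0 were called with voom weights. Over all 16012 genes 0.0375% passed higher and 0.0375% lower. This fit left the library numbers out, so differences between numbers entered its error. With the number as a block, 146 genes were called and 116 were under 0.05 after adjustment, against 12 and 0 without it. No member was called with the block. NID1 was 46.4 and 35.3 FPKM in bESC_tifx and 45.8 and 35.0 FPKM in bESC_LY, so libraries of the same number were nearly alike. The same held for COL4A1 (14.4 and 32.9 against 13.6 and 33.5 FPKM), COL4A2 (15.4 and 42.4 against 14.1 and 42.0 FPKM) and HSPG2 (11.3 and 19.4 against 10.3 and 20.1 FPKM), all higher in number 3 with and without LY. CDX2, the trophectoderm factor, followed the same split, at 0.368 and 0.243 FPKM in the libraries of number 2 and 13.7 and 15.2 FPKM in those of number 3. It is 1 of 8 trophectoderm markers, which summed to 115 to 300 FPKM in bESC_tifx and 101 to 259 FPKM in bESC_LY. Among the 8, the standard error of the LY change was largest for CDX2 (2.61) and smallest for TEAD4 (0.28). The other markers were not set against library number here, and the part of CDX2 in the collagen levels was not tested.

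The 2-cell experiments were then set against each other by testing the difference of their log2 fold changes in 1 fit across both tables. NID1 (4.12 ± 1.01, adjusted p = 0.0348, between 0.0285 and 0.106 over the alternatives) and COL4A2 (3.02 ± 0.96, adjusted p = 0.0773, between 0.0533 and 0.198) passed the threshold, that is 2 members higher and 0 lower of 10, beside 12.6% of all 14486 genes higher and 9.66% lower. NID1 was also under 0.05 after adjustment, as were 7.02% of all genes. The other 8 members were between -2.54 and 0.83. HSPG2 (-0.70), among them, met the filter only through its reads in the second table and was too shallow to test in LY10 alone. Of 6 tested hypoblast markers PDGFRA (5.75) and HNF4A (3.39) were called higher and GATA6 (-1.32) lower in the same test. Of 7 tested epiblast markers 4 were called higher, NANOG (3.99), DPPA4 (2.88), PRDM14 (1.88) and POU5F1 (1.15). Of 8 trophectoderm markers GATA2 (-2.37) and GATA3 (-1.45) were called lower, and of 5 fibroblast markers DCN (-4.42) was. The part of these lists was not tested. The vehicle groups themselves stood far apart for NID1, at 0.725 to 1.82 FPKM in DMSO and 15.5 to 16.2 FPKM in LY_DMSO, with the LY10 embryos (6.19 to 9.46 FPKM) in between. COL4A2 was at or below 0.124 FPKM in DMSO and at or above 0.458 FPKM in LY_DMSO. Experiment and table cannot be told apart in these values.

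A wider list of 64 basement membrane genes with their receptors, assembly factors and turnover enzymes was tested in the same fits. In LY10 39 were tested, 1 rose and 5 fell, with a median log2 fold change of -0.23 against -0.05 over all genes, of which 6.2% passed higher and 8.51% lower. Agrin (AGRN), a heparan sulfate proteoglycan that binds laminin, rose from 0.342, 0.251 and 0.722 FPKM to 0.918, 1.26 and 0.888 FPKM, by 1.34 ± 0.44 on the log2 scale (adjusted p = 0.131). The 5 that fell were the collagen COL17A1, the linker NPNT, the collagen-modifying PLOD2, the collagen chaperone SERPINH1 and the protease MMP9. Of these, 4 had a mean normalized count below 50 and PLOD2 had overlapping groups. NPNT, MMP9 and SERPINH1 averaged only 12.1, 16.1 and 23.1 over both groups. They met the filter of 10 mainly through the DMSO embryos, where they were high, so they could hardly be called except as falls. The count of 5 therefore says little about the list.

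In cell2_LY 9 of 42 rose and 0 fell by limma, with a median of 0.53, against 8.71% and 8.34% of all genes. By role, 3 of 9 tested receptors, 2 of 6 linkers, 2 of 8 turnover genes, 1 of 12 assembly genes and 1 of 2 other laminins rose, and 0 of 5 other collagens. The laminin-binding integrin chain ITGA3 was 1.56 and 1.18 FPKM in LY_DMSO and 8.34 and 5.78 FPKM in cell2_LY (2.35 ± 0.38, adjusted p = 0.0711). Dystroglycan (DAG1), a laminin receptor, was 9.53 and 5.36 FPKM in LY_DMSO and 30.0 and 25.9 FPKM in cell2_LY (1.96 ± 0.33, adjusted p = 0.0711). BCAM, which binds laminin alpha 5, was 9.80 and 6.13 FPKM in LY_DMSO and 39.7 and 24.6 FPKM in cell2_LY (2.01 ± 0.35, adjusted p = 0.0711). AGRN (1.75) and the membrane protease MMP15 (2.63) were higher too, and the other 4 were LAMB2, VWA1, PXDN and PLAU. LAMB2 averaged 19.8 normalized counts over the second table, near the filter of 10, and was highest in cell2_LY. Trophectoderm markers moved in the same comparison, 2 of 8 tested being higher, CDX2 (2.78) and GATA2 (1.99), with summed levels of 3965 to 4769 FPKM in LY_DMSO and 5015 to 7444 FPKM in cell2_LY. Of 7 tested epiblast markers 2 were lower, ZFP42 (-1.35) and DPPA4 (-1.29), with sums of 975 to 1091 FPKM in LY_DMSO and 588 to 810 FPKM in cell2_LY. Of 3 tested cumulus markers STAR (1.23) was higher and all 3 were above 0, with list sums of 9.03 to 20.1 and 17.5 to 39.0 FPKM. The rest of that list of 8 was too low to test, and FOXL2, PTX3 and TNFAIP6 had no reads in cell2_LY. The part of these cells was not tested.

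In cell16_LY 5 of 42 rose against LY_DMSO and 0 fell by limma, where 3.25% and 1.97% of all genes passed. Among these were ITGA3 (1.30), BCAM (1.30), MMP15 (1.96) and the plasminogen activator PLAU (2.83), and the smallest adjusted p of the list was 0.521. PLAU varied widely among vehicle embryos, at 81.8 and 10.9 FPKM, and was 185 and 244 FPKM in cell16_LY. The cumulus marker CYP11A1 (2.33) was the 1 cell type marker called there. The cumulus list summed to 22.7 to 89.3 FPKM in cell16_LY against 9.03 to 20.1 FPKM in LY_DMSO. Only 3 of its 8 genes were tested, and of the others called neither way STAR (0.35) was above 0 and FSHR (-0.34) below. AMH and TNFAIP6 had no reads in cell16_LY. The part of the cumulus list was not tested. Against cell2_LY, DAG1 (-1.16), the linker FBLN2 (-1.12), ITGA3 (-1.04) and VWA1 (-1.54) were lower in cell16_LY, and the collagen hydroxylases P4HA1 (1.36) and PLOD2 (1.34) were higher, where 5.77% of all genes passed lower and 5.58% higher. All 8 trophectoderm markers were below 0 in that comparison (median -0.80), and CDX2 (-1.84) and GATA2 (-1.94) were called lower. Their part was not tested. In the bESCs 0 of 57 tested genes of the list passed by limma, with the smallest adjusted p at 1.00. In the difference between the LY10 and cell2_LY changes 1 was higher (the integrin chain ITGB1, 1.19) and 7 lower of 43, DAG1 (-1.97, adjusted p = 0.0496) and MMP15 (-3.29, adjusted p = 0.0395) being under 0.05 after adjustment.

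**Figure D4:**
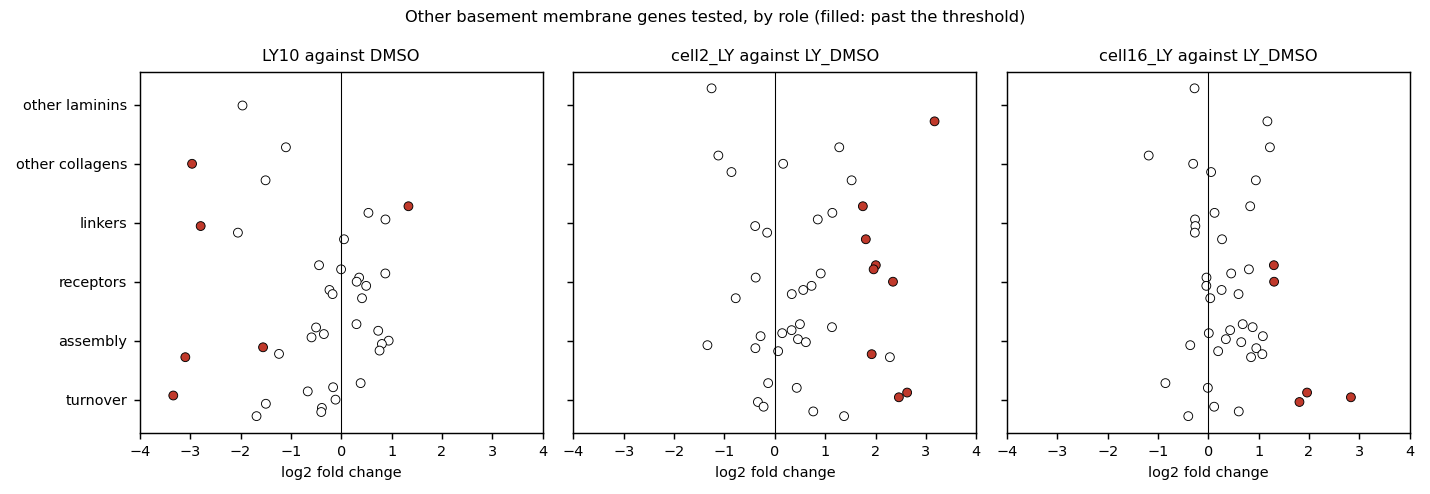
Log2 fold change of each tested gene of the wider basement membrane list, 1 point per gene in rows by role, in LY10, cell2_LY and cell16_LY against their vehicle groups; filled points passed the threshold. In cell2_LY and cell16_LY all filled points lie to the right of 0 (9 and 5 genes), and in LY10 5 of the 6 lie to the left. Among those 5, NPNT, MMP9 and SERPINH1 met the filter of 10 mainly through the DMSO embryos.

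The members did not share 1 pattern over the 12 blastocysts. With each table centred and scaled on its own, Pearson's r of a member with the mean of all 10 was highest for COL4A1 (0.82), LAMB1 (0.69) and SPARC (0.64) and lowest for LAMA1 (0.04) and COL4A2 (0.02). The non-members closest to that mean, of 9318 genes ranked, were IPPK (r = 0.92), NAV2 (0.84), LOC539166 (0.81), C2H2orf80 (0.80) and EIF2AK1 (0.79). The mean member score was highest in LY_DMSO replicate 2 (0.68) and DMSO replicate 2 (0.38), both vehicle embryos, and lowest in LY_DMSO replicate 1 (-0.39). Members entered the mean with equal weight and no filter for depth, which the ranked non-members had to pass. HSPG2 and COL4A2 had few reads in the first table, so counting error enters the mean and the low r of COL4A2. These r values are a description over 12 libraries that share their tables and treatments.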

How the data were processed

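Single blastocysts were sequenced with a SMART-Seq kit (polyadenylated RNA, PCR amplification) and bESC RNA was column-purified. The authors trimmed reads with fastp, aligned them with HISAT2 2.0.5 (STAR is also named), counted with featureCounts 1.5.0-p3 and deposited FPKM values, although named normalized counts; the tools also list StringTie 1.3.3b. The genome build is not given in the sources used here, nor whether counting used strand. The tables' DESeq2 1.20.0 fold changes and p-values were not used.

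FPKM times gene length fell on whole multiples of 1 step per library for 100% of values (tolerance 0.02 reads), which gave reads and library sizes. Testing was by limma 3.58.1 (R 4.3.3, eBayes with trend, two-sided) on log2(normalized count + 1), after genes averaging under 10 normalized counts were dropped, and p-values were adjusted over all genes left by the Benjamini-Hochberg method. All 3 groups of cell2_LY, cell16_LY and LY_DMSO embryos were fitted together. The difference between experiments was fitted over both blastocyst tables. Calls follow the study's threshold (p under 0.05 before adjustment, log2 fold change beyond 1 either way). Alternatives were other pseudocounts, filters, scalings and weights, voom on the recovered reads, the replicate block and each library left out. The script was tested on simulated data. The members, the lists, comparisons and alternatives were chosen with earlier results of these data known.

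Named genes are all members; genes of the wider list that were called with a mean of at least 50 and groups that do not overlap, at most 5 by smallest p per direction, the others being named where 5 or fewer or to complete a count, after their values were seen; markers of lists that moved; and the 5 non-members most like the members. One gene of the wider list is counted but not reported here by name. LAMB4 was not matched in any table, nor TIMP1 and SOX2 in the bESC table. Marker lists also covered cumulus cells (summed 9.03 to 89.3 FPKM in blastocysts and 21.7 to 68.7 FPKM in bESCs). Tables and plots were made with Python 3.11.15, pandas 2.3.3, numpy 2.4.6 and matplotlib 3.10.9. Intervals for single libraries were not computed; FPKM precision follows the reads given.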

Additional observations from a re-analysis of the deposited data

Results flagged for a closer look

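The change with LY from the 2-cell stage was tested for a difference between the LY10 and the cell2_LY experiments, in 1 limma fit over 12 blastocysts. The difference passed the threshold for 2 of 10 members, near the share of 22.2% over all 14486 genes. For NID1 the difference of log2 fold changes was 4.12 ± 1.01 (adjusted p = 0.0348), from 2.76 in LY10 and -1.36 in cell2_LY, and NID1 was higher than every DMSO embryo in 3 of 3 LY10 embryos and lower than both LY_DMSO embryos in 1 of 2 cell2_LY embryos. For COL4A2 it was 3.02 ± 0.96 (adjusted p = 0.0773), from 2.84 and -0.18. In the wider list the same test passed the threshold for ITGB1 (1.19), higher, and for SERPINH1 (-5.38), MMP15 (-3.29), PXDN (-3.16), BCAM (-2.45), ITGA3 (-2.04), DAG1 (-1.97) and VWA1 (-1.75), lower; over all genes 12.6% passed higher and 9.66% lower. No group held the 4 samples needed to test a single library for standing apart.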

How the results depend on the processing

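NID1 and COL4A2 were called in LY10 against DMSO under each alternative that tested them; COL4A2 was below the filter with a mean of at least 50 and on log2(FPKM + 1). Genes of the wider list called in LY10 numbered 6, but 2 with a mean of at least 50, 1 on log2(FPKM + 1), 2 with voom weights, and 2 (without DMSO replicate 2) to 9 (without DMSO replicate 3) with 1 library left out; the member median was then -0.38 to 0.25. On log2(FPKM + 1) the members called were 0 in cell2_LY against LY_DMSO, 0 in cell16_LY against cell2_LY and 1 in the difference between LY10 and cell2_LY changes, and the wider list gave 3 in cell16_LY against LY_DMSO and 4 against cell2_LY. With a mean of at least 50 that difference had 1 member and 5 genes of the wider list. With 1 library left out, cell2_LY against LY_DMSO had 0 (without LY_DMSO replicate 2) to 3 (without LY_DMSO replicate 1) members, 5 (without cell2_LY replicate 1) to 15 (without cell2_LY replicate 2) wider-list genes and a member median of -0.33 to 0.35. For cell16_LY against LY_DMSO these were 0 to 2 members (2 without LY_DMSO replicate 1), 2 (without cell16_LY replicate 1) to 9 (without LY_DMSO replicate 1) wider-list genes and -0.57 to 0.15, and the NID2 log2 fold change, 0.06 with all libraries, was -1.23 (reversed) without LY_DMSO replicate 1 and up to 1.35 without LY_DMSO replicate 2. For cell16_LY against cell2_LY they were 0 to 1, 2 (without cell16_LY replicate 1) to 10 (without cell2_LY replicate 2) and -0.19 to -0.0092, and this median was 0.087 with a mean of at least 50, -0.18 with quantile normalization, -0.30 with reads on genes as library size and 0.12 on log2(FPKM + 1). For the difference between the experiments 6 to 13 wider-list genes (13 without LY_DMSO replicate 2) and a median of -0.69 to 0.62 were found. The cause of these moves was not tested, except that a higher filter leaves fewer genes. Reads on genes as library size moved the median of all genes by over 0.1, to 0.24 in cell2_LY against LY_DMSO. A left-out library can leave 1 sample in an arm, which is then assumed to vary like the other groups. With the replicate number as a block, the pairing being only a shared number (correlations of deviations from -0.117 to 0.168 in the first blastocyst table, -0.232 to 0.121 in the second and 0.789 in the bESCs), the members called stayed 3 in LY10, 1 in cell2_LY, 0 in cell16_LY, 1 in cell16_LY against cell2_LY, 0 in the bESCs and 2 in the difference, while all-gene calls in the bESCs went from 12 to 146. With the numbers of cell16_LY crossed, a choice made after seeing the data, 928 and 1891 genes were called against LY_DMSO and cell2_LY, 0 and 1 of them members. In the first blastocyst table HSPG2, at 6 to 9 reads, was too shallow to test.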
